A study of Homo sapiens with 12 samples.

Results

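Neurofilament and neurite cytoskeleton genes were followed here as 8 named genes: the neurofilament subunits NEFL, NEFM and NEFH, the related filament protein INA, and the collapsin response mediator genes DPYSL2, DPYSL3, DPYSL4 and CRMP1. All probe sets whose annotated symbol was exactly one of these names were taken, which gave 16 probe sets for 8 of the 19775 genes with a probe set of their own. They were picked with the fraction differences of these same arrays known, so the fraction differences below are a description of the members and carry no test for them.

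The samples were A549 cells, an established human lung adenocarcinoma line, sorted by how well they exclude Hoechst 33342, a DNA dye given at 5 µg/ml over 90 min. The groups were side population (SP) cells, which pump the dye out, and non-SP cells after 48 h with a monoclonal EpCAM antibody at 100 µg/ml, and SP and non-SP cells from untreated cultures, with 3 biological replicates each and 12 arrays in all. The labels call the antibody anti-mouse EpCAM, and all groups share 1 cell line and the same dye exposure, so the SP is defined by a sort gate and not by a lineage marker. Each array gave log2 expression values for 54613 probe sets besides controls.

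Neurofilaments are the intermediate filaments of axons. NEFL is the core subunit on which NEFM and NEFH, the subunits with long side arms, and INA (alpha-internexin) assemble. The DPYSL and CRMP1 proteins are cytosolic phosphoproteins that bind tubulin dimers and carry the growth cone response to semaphorin 3A. Outside neurons, neurofilament proteins serve as markers of neuroendocrine differentiation in lung tumours, and CRMP1 was described as a suppressor of invasion in lung cancer cells.

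Within a treatment, the SP array was paired with the non-SP array bearing its replicate number, which gave 6 pairs. Their sorted values differed by 0.0093 to 0.0213 on average, against 0.0461 to 0.524 for all other array pairs, so pairs look normalised together and array medians ranged from 5.58 to 6.24. Fraction differences were taken within pairs as deposited, and comparisons between treatments after quantile normalization of all arrays. The labels do not say that a pair came from 1 culture. As a check of the sort, ABCG2, a Hoechst exporter, was 0.49 ± 0.058 log2 units higher in SP cells, with all 6 pairs above 0 (SE). EPCAM, the antibody target, was 0.26 ± 0.059 log2 units higher in SP cells, also in 6 of 6 pairs, and its treated minus untreated difference was 0.27 ± 0.43. All 7 epithelial markers on the array passed the filter on dim probe sets. So did 5 of 6 lung lineage markers (ABCA3, NKX2-1, SFTPB, NAPSA and SFTPC, but not LAMP3). Of all 19775 genes, 14649 had a probe set that passed, and so did 2 of 4 leukocyte and endothelial markers. Passing the filter is therefore no sign of cell identity. In bulk RNA, fewer expressing cells and less RNA per cell cannot be told apart.

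DPYSL3, which differed between fractions, has 2 start sites in the RefSeq promoter table (GRCh38.p14), and INA, whose fraction difference averaged near 0, has 1. Their 300-base windows are shown to set the promoter of a member lower in SP cells in all pairs beside that of a member with pairs in both directions. Each runs 5′ to 3′ on the gene's strand, and capitals mark matches to a searched motif.
DPYSL3 (chr5:147510019-147510318, minus strand): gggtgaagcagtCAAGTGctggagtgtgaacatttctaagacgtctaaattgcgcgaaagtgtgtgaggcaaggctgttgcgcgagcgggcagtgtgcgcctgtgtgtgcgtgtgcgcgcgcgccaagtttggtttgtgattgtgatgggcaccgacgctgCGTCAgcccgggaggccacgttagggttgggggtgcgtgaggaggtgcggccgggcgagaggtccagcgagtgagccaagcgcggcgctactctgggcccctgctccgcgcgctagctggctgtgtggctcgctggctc
DPYSL3 (chr5:147453643-147453942, minus strand): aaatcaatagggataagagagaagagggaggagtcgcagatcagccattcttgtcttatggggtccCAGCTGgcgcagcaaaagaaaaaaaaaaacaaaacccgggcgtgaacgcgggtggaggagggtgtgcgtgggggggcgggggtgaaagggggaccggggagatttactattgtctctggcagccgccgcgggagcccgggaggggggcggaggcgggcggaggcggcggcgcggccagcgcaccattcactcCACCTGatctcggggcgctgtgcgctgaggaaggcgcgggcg
INA (chr10:103276888-103277187, plus strand): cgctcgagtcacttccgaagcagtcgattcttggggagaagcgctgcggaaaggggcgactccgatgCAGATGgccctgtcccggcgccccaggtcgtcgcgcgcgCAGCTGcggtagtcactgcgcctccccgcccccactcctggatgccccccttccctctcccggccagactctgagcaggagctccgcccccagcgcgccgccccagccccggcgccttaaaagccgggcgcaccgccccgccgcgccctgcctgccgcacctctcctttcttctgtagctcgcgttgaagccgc

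The motifs searched on both strands were CAGCACC, part of the RE1 element bound by the neuronal gene repressor REST, TGACG, the core of the cyclic AMP response element, TGANTCA, the AP-1 site, and CANNTG, the E-box. CAGCACC and TGANTCA had 0 matches in these windows, against 7.75% and 7.71% of all 35116 promoters in the table with a match. The first DPYSL3 window held 1 TGACG core (24.6% of promoters hold one) and 1 E-box. The second DPYSL3 window and the INA window each held 2 E-boxes, a motif found in 68.7% of promoters. No motif matches overlapped in these windows. The windows were rich in G and C, at 64.3% in each DPYSL3 window and 71.3% in INA, against a median of 58.7% over the table. Of the other members, DPYSL4 and CRMP1 matched the table, with 0 and 1 windows holding CAGCACC. No window of NEFL, NEFM or DPYSL2 was searched, since the search left out their chromosome, and NEFH had no entry.

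The filter on dim probe sets kept those with an average of more than 5.39, the 40th percentile, across the 12 arrays. Of the 16 member probe sets, 10 passed, from NEFL, INA, DPYSL2, DPYSL3, DPYSL4 and CRMP1. Neither probe set of NEFM (means 5.06 and 4.44) nor of NEFH (4.61 and 3.51) passed, and neither did DPYSL3 237292_at (4.62) or DPYSL4 205492_s_at (5.37). Levels of different probe sets depend on their probes and were not compared with each other.

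NEFL was lower in SP cells in every pair by its 2 brighter probe sets. NEFL 221805_at read 6.90, 7.66 and 7.59 in antibody-treated SP arrays 1, 2 and 3, against 7.40, 8.46 and 9.08 in the non-SP arrays of the same numbers. In untreated cells it read 7.02, 7.28 and 7.83 in SP arrays, against 7.13, 7.87 and 8.95 in non-SP arrays. The fractions overlapped as groups, since the non-SP arrays numbered 1 lay below several SP arrays, but within each pair the SP array was the lower one. The difference averaged -0.77 ± 0.49 on the log2 scale (SD, n = 6 pairs), a level 1.71-fold lower in SP cells. It was widest in the pairs numbered 3, at -1.49 with antibody and -1.13 without. It was narrowest in untreated pair 1, at -0.12, and lay between -0.50 and -0.80 in the remaining pairs.

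The second probe set, NEFL 221916_at, differed by -0.66 ± 0.46 (SD, n = 6 pairs). It read 6.15, 7.21 and 7.47 in antibody-treated SP arrays, against 6.43, 7.80 and 8.74 in non-SP arrays. Untreated SP arrays read 6.63, 6.71 and 7.40, against 6.83, 7.16 and 8.57 in non-SP arrays. Its 6 pair differences, from -1.28 to -0.20, had the same sign and again the widest gaps in the pairs numbered 3. The dimmest set, NEFL 221801_x_at, whose suffix marks probes that may bind other transcripts, was lower in SP cells in 4 pairs and higher in 2, with a mean of -0.30 ± 0.50 (SD, n = 6 pairs).

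**Figure D1:**
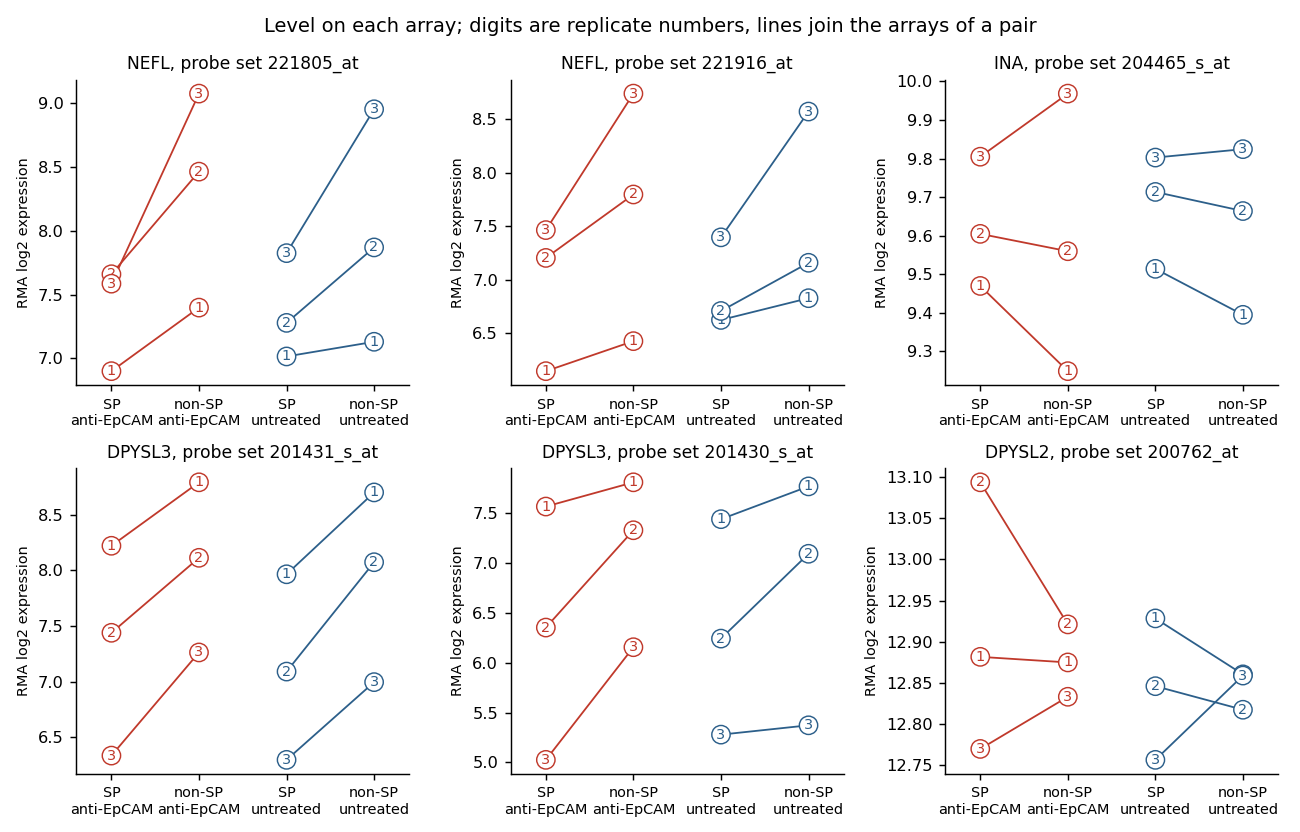
RMA log2 expression on each array (y axis) for NEFL, INA, DPYSL3 and DPYSL2 probe sets, with antibody-treated SP and non-SP arrays left of untreated ones. Digits are replicate numbers and lines join the arrays of a pair. For NEFL 221805_at and 221916_at and both DPYSL3 probe sets shown every line climbs toward non-SP, while INA and DPYSL2 have lines in both directions.

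NEFM, the neighbouring protein-coding gene of NEFL with 0 protein-coding genes between them, did not pass the filter. NEFM 223902_at was higher in SP cells in 3 pairs and lower in 3, with a mean of 0.067 ± 0.29, and NEFM 205113_at averaged 0.11 ± 0.15 (SD, n = 6 pairs each). NEFH 204412_s_at averaged -0.22 ± 0.29 and NEFH 33767_at 0.026 ± 0.11, both dim. INA passed the filter and its fraction difference averaged near 0. INA 204465_s_at read 9.47, 9.60 and 9.80 in antibody-treated SP arrays, against 9.25, 9.56 and 9.97 in non-SP arrays. Untreated SP arrays read 9.51, 9.71 and 9.80, against 9.39, 9.66 and 9.82 in non-SP arrays. Its pair differences ran from -0.16 to 0.22, with 4 above 0 and 2 below, and averaged 0.042 ± 0.13. The lower level in SP cells among the filament subunits was thus measured for NEFL, whereas INA, the other subunit above the filter, averaged near 0.

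DPYSL3, the CRMP4 gene, was lower in SP cells in every pair, and its first probe set had the most even difference of all members that passed the filter and differed by 0.5 or more. DPYSL3 201431_s_at read 8.22, 7.44 and 6.34 in antibody-treated SP arrays, against 8.79, 8.11 and 7.26 in non-SP arrays. Untreated SP arrays read 7.96, 7.09 and 6.30, against 8.70, 8.07 and 7.00 in non-SP arrays. Here too the fractions overlapped as groups and did not overlap within pairs. The difference averaged -0.76 ± 0.16 (SD, n = 6 pairs), 1.70-fold lower in SP cells, and ranged from -0.98 to -0.57.

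DPYSL3 201430_s_at gave -0.60 ± 0.43 (SD, n = 6 pairs), also lower in all 6 pairs. It read 7.57, 6.35 and 5.03 in antibody-treated SP arrays, against 7.81, 7.33 and 6.16 in non-SP arrays. In untreated cells it read 7.44, 6.24 and 5.28 in SP arrays, against 7.77, 7.09 and 5.37 in non-SP arrays. Its pair differences were uneven, from -1.13 in antibody-treated pair 3 to -0.09 in untreated pair 3, although the first probe set gave -0.93 and -0.70 in those pairs. The dim set DPYSL3 237292_at, with a mean difference of 0.073 ± 0.14, was higher in SP cells in 5 of 6 pairs.

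The other family members stayed close to 0. DPYSL2, the widely expressed CRMP2 gene, read between 12.8 and 13.1 on all arrays, with pair differences from -0.10 to 0.17 and a mean of 0.018 ± 0.098 (SD, n = 6 pairs). CRMP1 202517_at was lower in SP cells in 5 of 6 pairs, by a mean of -0.11 ± 0.14. DPYSL4, the CRMP3 gene, had -0.15 ± 0.19 by 205493_s_at, with 5 pairs below 0 and 1 at exactly 0. Its other sets gave 0.065 ± 0.23 by 214301_s_at and 0.0019 ± 0.14 by the dim 205492_s_at. DPYSL3 is thus the family member for which 2 probe sets lay below 0 in all 6 pairs, and its size exceeded the pair-to-pair SD in both.

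**Figure D2:**
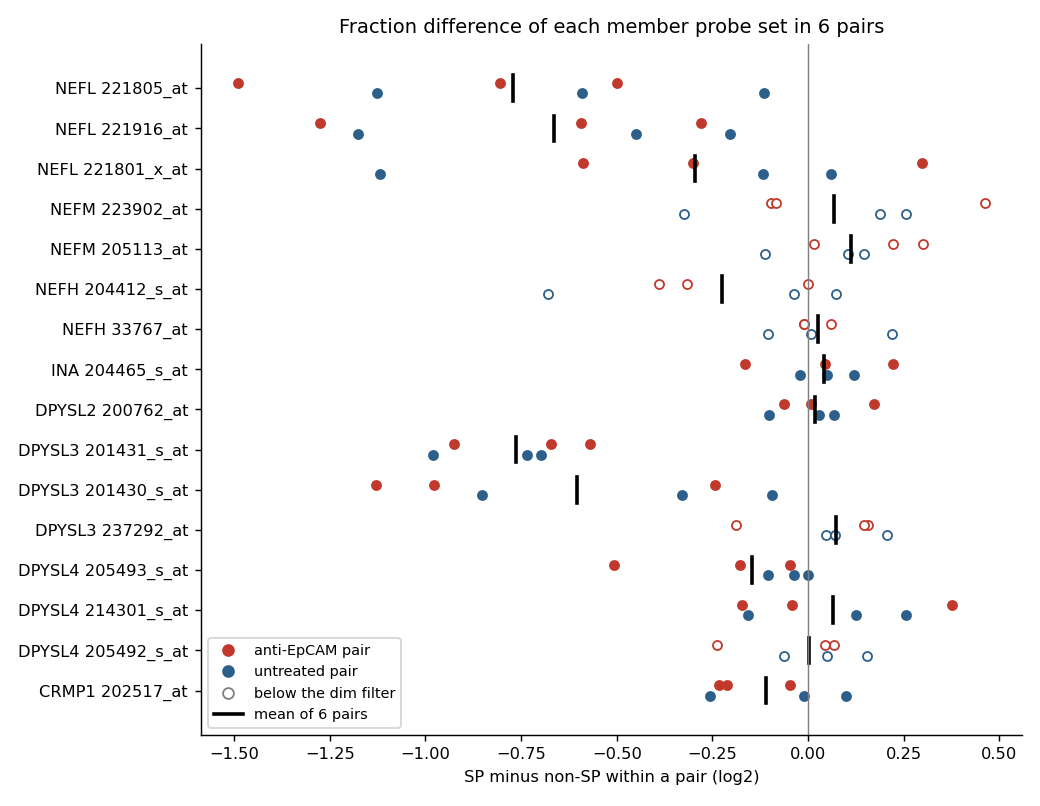
SP minus non-SP within each pair on the log2 scale (x axis) for the 16 member probe sets, 1 row each, with antibody-treated pairs drawn above untreated pairs and the mean of 6 pairs as a black bar. Open symbols are probe sets below the dim filter. NEFL 221805_at and 221916_at and DPYSL3 201431_s_at and 201430_s_at have all 6 points below 0.

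Over all 32768 probe sets that passed the filter, limma on the within-pair differences called 0.641% at an adjusted p under 0.05, of which 159 (0.485%) were lower and 51 (0.156%) higher in SP cells. An unadjusted p under 0.05 was reached by 14.3%. Among the 10 member probe sets it called 1, DPYSL3 201431_s_at. The members were chosen with this contrast known, so nothing is read from that count. That call was not made without untreated pair 1 or 3 or anti-EpCAM pair 2 or 3, which left 10, 0, 0 and 11 calls over the array. Without untreated pair 2 the array had 22 calls and without anti-EpCAM pair 1 it had 322. With 1 probe set per gene, 2 of 6 members were called, NEFL and DPYSL3, against 2.47% of all genes. Nothing is read from this count either, since the same choice of members lies behind it. A mean of -0.5 or lower was found in 1.06% of all probe sets that passed, and of 0.5 or higher in 0.253%. In all 6 pairs, 4.53% of them were lower and 5.01% higher in SP cells. The 10 member estimates, which count NEFL, DPYSL3 and DPYSL4 more than once, had a median of -0.22. That median only describes the chosen members.

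RNA quality differed inside some pairs. The log2 gap between the 3′ and 5′ control probe sets of ACTB, which widens as RNA degrades, was 3.14 in SP and 1.28 in non-SP cells of antibody-treated pair 1. It was 1.03 in SP and 3.13 in non-SP cells of antibody-treated pair 3. In the other 4 pairs the ACTB gap differed between fractions by -0.36 to 0.27. The ACTB gap was wide in both fractions of untreated pairs 1 and 2, from 2.61 to 2.95. It lay between 1.03 and 1.39 in untreated pair 3 and between 0.94 and 1.20 in antibody-treated pair 2. The same gap for GAPDH differed by -0.38 to 0.54 over the 6 pairs. The part of RNA quality in the member differences was not tested. Without antibody-treated pairs 1 and 3 the mean fraction difference was -0.71 for NEFL 221805_at and -0.74 for DPYSL3 201431_s_at. It was -0.60 for NEFL 221916_at and -0.70 for DPYSL3 201430_s_at, and 0 probe sets were called over the whole array.

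Markers of neuroendocrine cells, which carry neurofilaments, were looked at beside NEFL. Of 10 listed markers 8 had a probe set and 6 passed the filter. INSM1 and GRP were below it. The mean level of the 8 ranged from 6.44 to 7.09 in antibody-treated SP arrays and from 6.45 to 7.10 in antibody-treated non-SP arrays. In untreated cells it ranged from 6.57 to 6.87 in SP arrays and from 6.42 to 6.90 in non-SP arrays. Within pairs it differed by -0.035 to 0.15. Of the 6 that passed, 4 averaged above 0 and 2 below, with a median of 0.024. NCAM1, CHGA, SYP and CALCA averaged 0.12, 0.084, 0.034 and 0.014, and ENO2 and UCHL1 averaged -0.21 and -0.13. INSM1, below the filter, averaged 0.15 and was higher in SP cells in 6 of 6 pairs. Of 7 neuron markers 5 passed the filter and ELAVL4 and GAD1 did not, and their mean differed within pairs by -0.094 to 0.10. The mean of the 6 fibroblast markers, of which 4 passed, differed by -0.25 to 0.070. Of the 4 that passed, 1 averaged above 0 and 3 below. Below the filter, COL3A1 averaged -0.37 and was lower in SP cells in 6 of 6 pairs, and LUM averaged 0.011. The part of other cell types in the NEFL and DPYSL3 differences was not tested.

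By likeness over the 6 pair differences, measured as the root mean square gap in log2 units among 14649 genes, the genes nearest to NEFL were CEACAM7 (0.176), OR51E1 (0.181), C11orf96 (0.22), SLC16A7 (0.221) and TSPAN8 (0.239). Their mean fraction differences ran from -0.69 for SLC16A7 to -0.56 for C11orf96. The genes nearest to DPYSL3 were ARRDC4 (0.136), TNFRSF10D (0.153), COL11A1 (0.177), RNF182 (0.215) and CARD8-AS1 (0.215), with means from -0.90 for CARD8-AS1 to -0.65 for RNF182. The 2 lists had no gene in common, but lists of 5 out of 14649 genes would rarely share one, so nothing is read from that. All values come from the same 6 pairs, which share arrays and processing.

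Genes that work with the members were set beside them in SP against non-SP cells. With 0.641% of all probe sets called, a count of 0 in lists of 7 to 18 genes is near the background and is no result about these genes. Of 7 other intermediate filament genes, 0 were called. Vimentin (VIM) averaged 0.011 and peripherin (PRPH), a filament protein of peripheral neurons, 0.022, while nestin (NES) averaged -0.084, SYNC -0.15 and desmin (DES) 0.12. The median of this list was 0.022, against 0.0056 over all genes. Of 18 tested genes of semaphorin signalling to the CRMPs, 0 were called. The kinase FYN averaged -0.37 and was lower in SP cells in 6 of 6 pairs (limma adjusted p = 0.0701), the semaphorin co-receptor PLXNA3 averaged -0.33 (adjusted p = 0.165), and NUMB 0.24 (adjusted p = 0.162). CDK5R1, the activator of the CRMP kinase CDK5, averaged -0.21, and DPYSL5, the remaining CRMP gene, averaged -0.13 with 4 of 6 pairs below 0. The list median was 0.0059.

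Of 15 tested microtubule and growth cone genes, 0 were called and the median was 0.013. DCLK1, a microtubule-binding kinase, averaged -0.28 and was lower in 6 of 6 pairs (limma adjusted p = 0.119), and MAP2 and MAP1B, microtubule-associated proteins, averaged -0.14 and 0.14. STMN2, DCX and GAP43, which mark growing neurites, did not pass the filter. Among 9 genes of neurofilament transport and turnover, 0 were called, and TRIM2, a ubiquitin ligase that acts on NEFL, averaged -0.24. The chaperone HSPB1 and OGT, which adds sugar to neurofilaments, averaged -0.14 and -0.12. Of REST and its corepressors 0 of 7 were called: REST averaged 0.069, the deacetylase HDAC2 0.096, and SIN3A 0.26 with 6 of 6 pairs above 0 (limma adjusted p = 0.12). Of 11 neuronal genes known as REST targets, 0 were called, with a median of -0.031. L1CAM, an adhesion molecule of axons, averaged -0.20, the secretory granule protein CHGB 0.19 and the neurotrophin BDNF -0.16.

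**Figure D3:**
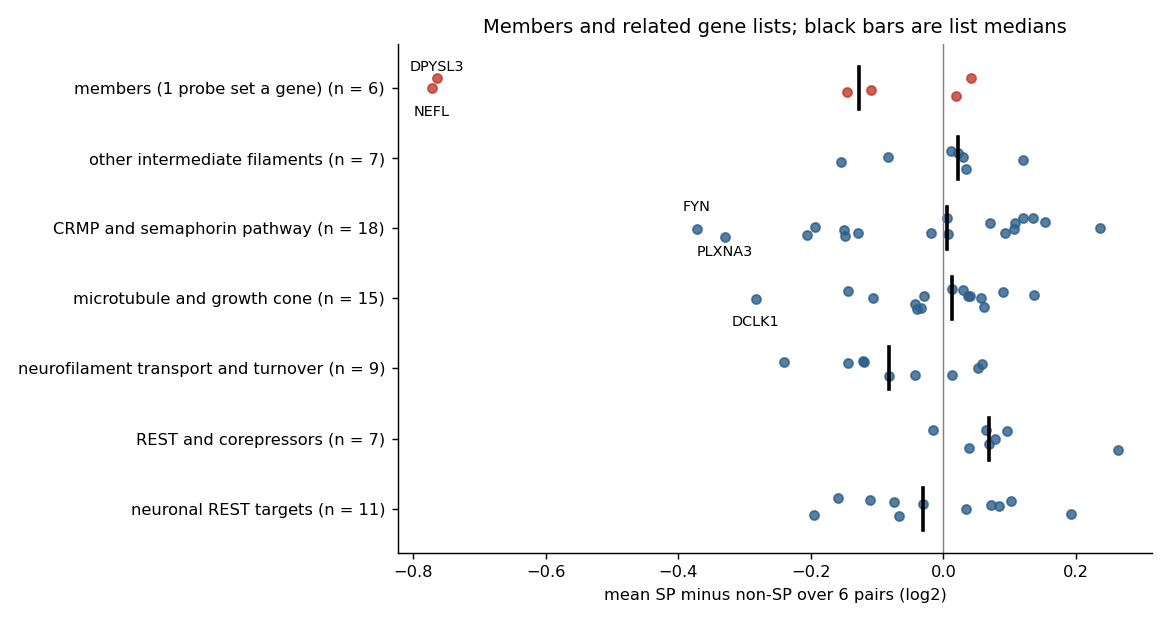
Mean SP minus non-SP difference over 6 pairs on the log2 scale (x axis) for members and 6 related lists, 1 point per gene above the dim filter, with black bars for list medians. NEFL at -0.77 and DPYSL3 at -0.76 were chosen with these differences known, and the lowest gene of the other lists is FYN at -0.37.

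The EpCAM antibody was next set against no treatment, within each fraction and over pair means. NEFL 221805_at averaged 7.35 ± 0.16 in antibody-treated SP cells, against 7.42 ± 0.21 in untreated SP cells (SD, n = 3 each). In non-SP cells it averaged 8.29 ± 0.65 with antibody, against 8.03 ± 0.72 without. From low to high the order was treated SP, untreated SP, untreated non-SP and treated non-SP, and neighbouring groups in this order were within 1 SD of the wider group. The spread of NEFL was wider in the non-SP groups, with SDs of 0.65 and 0.72, than in the SP groups, with 0.16 and 0.21. The antibody difference was -0.07 ± 0.16 in SP cells, with a 95% interval from -0.45 to 0.31, and 0.26 ± 0.43 in non-SP cells, from -0.75 to 1.27 (limma, SE, n = 3 each, adjusted p = 1 for both).

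DPYSL3 201431_s_at averaged 7.25 ± 1.19 in treated SP cells, against 7.17 ± 1.02 in untreated SP cells. It averaged 7.97 ± 0.98 in treated non-SP cells, against 7.95 ± 1.06 in untreated non-SP cells (SD, n = 3 each). The order from low to high was untreated SP, treated SP, untreated non-SP and treated non-SP, with steps smaller than the SDs. Its antibody difference was 0.083 ± 0.67 in SP cells, with an interval from -1.50 to 1.66, and 0.024 ± 0.63 in non-SP cells, from -1.44 to 1.49 (limma, SE, adjusted p = 1 for both). With the replicate number as a block, the SE was 0.13 in SP cells and 0.16 in non-SP cells, and neither difference was called.

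INA averaged 9.59 ± 0.17 in treated SP cells, against 9.70 ± 0.11 in untreated SP cells. Treated non-SP cells averaged 9.56 ± 0.29, against 9.67 ± 0.14 in untreated non-SP cells. DPYSL2 averages lay between 12.85 and 12.88 in the 4 groups. CRMP1 averaged 7.36 ± 0.45 and 7.36 ± 0.04 in treated and untreated SP cells, and 7.50 ± 0.34 and 7.41 ± 0.17 in treated and untreated non-SP cells. DPYSL4 205493_s_at averaged 7.73 ± 0.54 in treated SP cells, against 7.94 ± 0.38 in untreated SP cells. Treated non-SP cells averaged 7.97 ± 0.34 and untreated non-SP cells 7.98 ± 0.37 for that set. These groups overlapped for each of the genes.

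Over all 32768 probe sets limma called 0% for the antibody in SP cells, in non-SP cells and over pair means, with 435 (1.33%), 690 (2.11%) and 560 (1.71%) probe sets at an unadjusted p under 0.05. None of the 10 member probe sets was called in these contrasts. NEFL 221801_x_at differed by 0.46 ± 0.14 in SP cells (limma, SE, n = 3 each, adjusted p = 1). It averaged 5.54 ± 0.13 in treated SP cells, against 5.07 ± 0.14 in untreated SP cells. This set passed the filter through the treated arrays: its deposited values averaged 5.61 in treated SP and 5.81 in treated non-SP cells, against 4.99 in untreated SP and 5.38 in untreated non-SP cells, both below 5.39. Its antibody difference is therefore a description. The brighter NEFL sets had -0.070 and -0.048 there, so the NEFL probe sets disagreed on this difference.

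**Figure D4:**
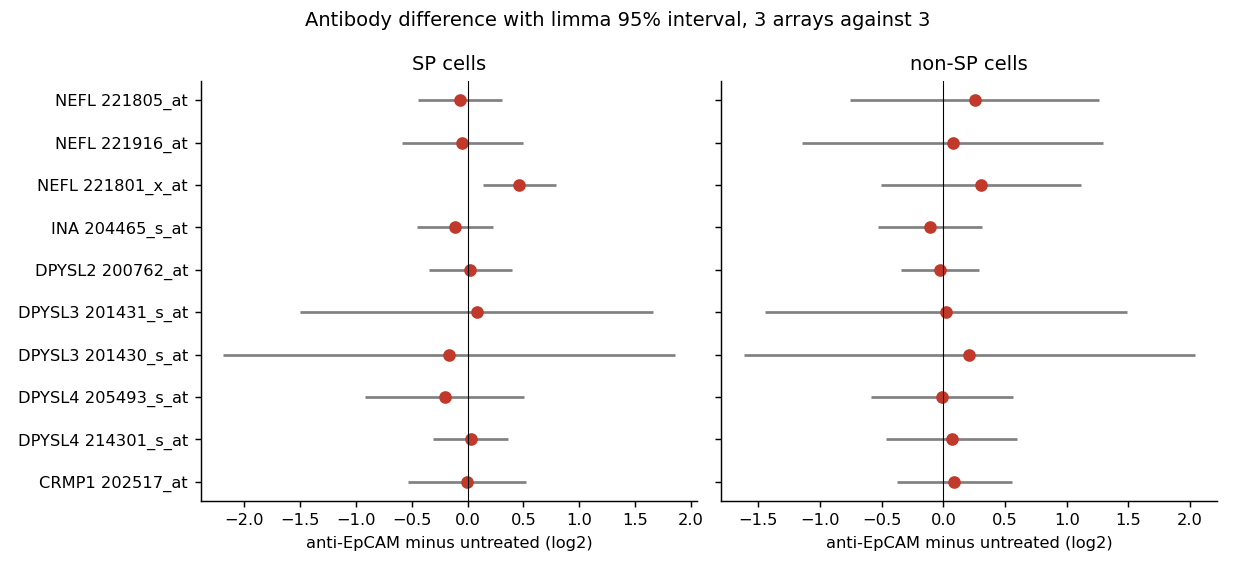
Antibody-treated minus untreated difference on the log2 scale (x axis) after quantile normalization for the 10 member probe sets above the dim filter, in SP cells and in non-SP cells. Points are limma estimates and lines their 95% intervals (3 arrays against 3). The DPYSL3 intervals are the widest, and that of NEFL 221801_x_at in SP cells lies above 0.

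Whether the fraction difference itself changed with the antibody was tested by the interaction. NEFL 221805_at differed between fractions by -0.93 ± 0.51 in treated pairs and -0.61 ± 0.51 in untreated pairs (SD, n = 3 each). The change was -0.32 ± 0.31, with a 95% interval from -1.05 to 0.41 (limma, SE, adjusted p = 1). DPYSL3 201431_s_at had -0.72 ± 0.18 in treated and -0.80 ± 0.15 in untreated pairs, a change of 0.082 ± 0.14 with an interval from -0.24 to 0.40 (limma, SE, adjusted p = 1). The second DPYSL3 set had -0.36 ± 0.27 (adjusted p = 1), from -0.78 ± 0.47 in treated pairs and -0.42 ± 0.39 in untreated pairs. Member estimates for the interaction ran from -0.36 to 0.20, and 0 of 10 were called. Over the whole array 0% of probe sets were called, with 520 (1.59%) at an unadjusted p under 0.05.

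Levels of DPYSL3 varied more between pairs than between fractions. The following pair means, looked at after the data were seen, average both fractions of a pair after quantile normalization. They were 8.71, 7.57 and 6.56 for DPYSL3 201431_s_at in antibody-treated pairs 1, 2 and 3, against 8.50, 7.72 and 6.46 in untreated pairs 1, 2 and 3. The range over the 6 pairs was 2.26, a range reached by 0.745% of the probe sets that passed the filter, whose median was 0.511. NEFL 221805_at ran the other way, at 7.42, 7.86 and 8.19 in treated pairs, against 7.28, 7.70 and 8.20 in untreated pairs. In both treatments the pair with the highest DPYSL3 had the lowest NEFL, and the pair with the lowest DPYSL3 the highest NEFL.

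For both genes, a treated pair thus lay closest to the untreated pair that shares its number. DPYSL4 205493_s_at and DPYSL2 ordered the 3 numbers as DPYSL3 did in both treatments, with ranges of 0.823 and 0.297. CRMP1 ordered them as NEFL did, with a range of 0.767. INA had a different order in treated and untreated pairs. The same order in both treatments was found for 8 of the 10 member probe sets and for 30.5% of all probe sets that passed. As a share of all that passed, 12.6% ran as DPYSL3 and 10.8% as NEFL. What the replicate numbers stand for was not stated in the labels. RNA quality, by the ACTB gap, also differed between pairs, and its part in these levels was not tested.

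**Figure D5:**
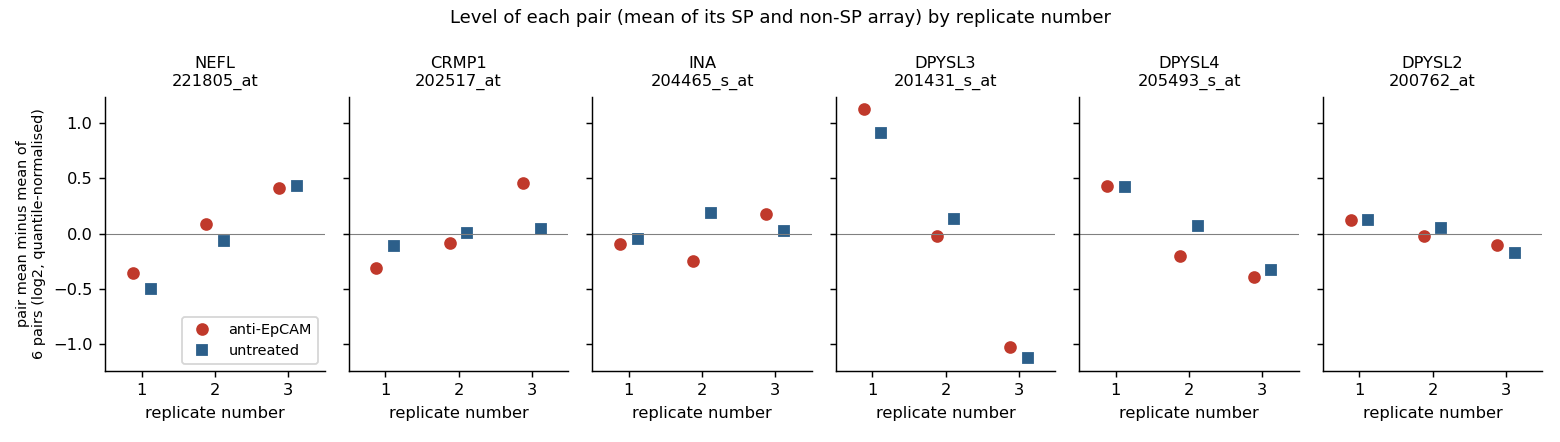
Pair mean minus the mean of the 6 pairs on the log2 scale after quantile normalization (y axis) by replicate number (x axis), with antibody-treated pairs left of untreated ones. DPYSL3 spans 2.26 log2 units over the pairs, with number 1 highest in both treatments, and NEFL spans 0.927 with number 3 highest.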

How the data were processed

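Gene expression of sorted A549 cells was measured on an Affymetrix array. The deposited values are log2 expression values per probe set made by the authors with RMA, per the submitters' processing notes, with no version given and no statement of which arrays were processed together. Values ranged from 2.43 to 14.95. Groups came from the sample titles. The labels call the replicates biological. Gene names came from the platform's probe table: 41091 probe sets had 1 symbol, 1801 several and 11721 none. The 62 control probe sets were left out.

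The members and lists were chosen with earlier results of these data known. The text names all member probe sets, the 5 genes nearest to NEFL and to DPYSL3, list genes called and up to 3 list genes of largest fraction difference, plus a few partners and markers chosen after their values were seen. limma 3.58.1 in R 4.3.3 was fitted to the 32768 probe sets above the 40th percentile of the mean (5.39), without trend, with Benjamini-Hochberg adjustment over all of them and a threshold of 0.05. Fraction and interaction used within-pair differences of values as deposited. Pairing rests on deviations from group means, which correlated within pairs with r of 0.52 to 0.86. Antibody contrasts used quantile-normalised values, 3 against 3 in each fraction, and pair means for the average. The number of arrays limits precision. The fits were tested on simulated data with added changes of 0.5 or 1 log2 unit. Each antibody fit called 0% of either size. The interaction fit called 0% of the smaller and 39% of the larger changes. The fraction fit called 76% and 92%, with 10 false calls. The simulated pair effects and noise were independent between probe sets, so shifts shared by many probe sets of an array were not modelled. These shares and false calls may therefore differ in the real arrays. Alternatives covered pairing, normalization, filter, probe set choice, variance prior and each pair left out.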

Additional observations from a re-analysis of the deposited data

Results flagged for a closer look

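DPYSL4 205493_s_at had a fraction difference of -0.51 in anti-EpCAM pair 3, far from the other 5 pairs, which lay between -0.18 and 0. The gap to the nearest pair was 0.647 of the whole range, above the 95% critical value of Dixon's test for 6 values. Chance flags about 5% of such groups, and 16 member probe sets were searched with 1 flagged. In that pair the ACTB 3′ to 5′ gap was 1.03 in SP and 3.13 in non-SP cells, and its part in the value was not tested.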

How the results depend on the processing

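Over 13 alternatives each, the fraction difference ranged from -0.90 to -0.63 for NEFL 221805_at and from -0.80 to -0.71 for DPYSL3 201431_s_at, all below 0. Smaller differences moved more in proportion: NEFL 221801_x_at ranged from -0.42 to -0.11 and DPYSL4 205493_s_at from -0.19 to -0.080. INA, DPYSL2 and DPYSL4 214301_s_at kept their sign in 12 of 13, 11 of 13 and 9 of 11 alternatives. The number of probe sets called over the whole array moved strongly. Against 210 over 6 pairs, it was 0 with no replicate block, 12 arrays taken as independent (563 at an unadjusted p under 0.05), and with limma trend 0 (4505). It was 362 genes with 1 probe set per gene. Leaving out both anti-EpCAM pairs 1 and 3 gave 0 (6401 at an unadjusted p under 0.05), with fewer pairs in the fit. Leaving out 1 pair gave between 0 and 322: 10, 22 and 0 without untreated pairs 1, 2 and 3, and 322, 0 and 11 without anti-EpCAM pairs 1, 2 and 3. The cause of these moves was not tested. DPYSL3 201431_s_at was called with quantile normalization, without the filter, at the 60th percentile filter and with 1 probe set per gene. It was also called without untreated pair 2 or anti-EpCAM pair 1, and in no other alternative. This member was chosen with the contrast known, so its calls are a description and no test.

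The interaction and antibody contrasts had 0 calls in limma with the settings reported and under every alternative run, with member adjusted p of at least 0.724 for the antibody. With so few arrays, such counts of 0 say nothing about stability or about the absence of a change. The replicate block on the shared number gave 0 calls in each antibody contrast, with 886, 2144 and 1862 at an unadjusted p under 0.05 in SP, in non-SP and on average. It narrowed the SE of DPYSL3 201431_s_at in SP cells to 0.13, against 0.67. Numbers were not taken as pairs across treatments, since correlations between treated and untreated arrays of the same number were uneven. These were correlations of deviations from group means after quantile normalization. For number 2, r was -0.37 in SP and -0.21 in non-SP cells. It was 0.61 and 0.67 for number 1 and 0.55 and 0.47 for number 3. Counting each member estimate under each alternative separately, the sign differed from the reported one in 13 cases for the interaction and in 20 for each antibody contrast, all uncalled.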
